A study of Homo sapiens with 12 samples.

Results

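SOX21-/- and wild-type H9 cells were compared before neural differentiation began, at day 0, when the cells were undifferentiated. H9 is an established human embryonic stem cell line. The comparison rests on 4 libraries of poly(A) RNA of 12 in the series, WT1 and WT2 labelled wild type and S13 and S23 labelled SOX21-/-, and on 19804 protein-coding genes outside the mitochondrial MT- genes of 58219 gene entries. The other 8 libraries are wild type and SOX21-/- at days 4 and 8 of differentiation, 2 per group. Apart from the SOX21 alleles and the day, the labels give the groups no other difference: no transgene, drug or selection agent is named. The labels state neither what the SOX21 alleles lack nor whether S13 and S23 are separate clones and WT1 and WT2 separate cultures. The p-values therefore measure only the spread between these libraries, which may be technical. Below, SOX21-/- stands for the libraries so labelled.

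SOX21 encodes a transcription factor of the SOXB2 group, which binds DNA through a high-mobility-group box and acts mostly as a repressor. Its relatives of the SOXB1 group, SOX2 and SOX3, act mostly as activators at similar sites. Embryonic stem cells depend on SOX2 together with POU5F1 and NANOG, while SOX21 is best known from neural progenitors. A series about SOX21 in neural regionalization thus takes its stem-cell stage as the starting point from which the later differences are measured.

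Levels are TPM, the share of a library's transcripts that belongs to a gene, rescaled so that the protein-coding genes outside MT- add up to 1000000 in each library. TPM is already corrected for transcript length, so levels of different genes can be set side by side, but it keeps no read numbers and the depth of every library is unknown. Protein-coding genes held 55.9% to 56.4% of the deposited TPM in the 4 day 0 libraries and 83.5% to 87.1% in the other 8. Genes with a level of at least 1 in at least 2 of the 4 day 0 libraries, 13084 in number, were tested with limma on log2(level + 1). A gene is said to be called when its Benjamini-Hochberg adjusted p over these genes was under 0.05. With 2 libraries against 2, an exact permutation test of a single gene cannot go below 0.333. Every call therefore depends on a spread that limma pools over genes, which in the main fit was taken over all 12 libraries.

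Few genes were called between the genotypes in stem cells. Of the 13084 tested genes, 10 were called (0.0764%), 3 higher (0.0229%) and 7 lower (0.0535%) in SOX21-/-. At an unadjusted p under 0.05 there were 1082 (8.27%), 602 higher (4.6%) and 480 lower (3.67%). In the same fit 210 genes were called at day 4 (1.61%), 38 higher (0.29%) and 172 lower (1.31%). At day 8 there were 562 (4.3%), 281 (2.15%) in each direction. The later counts moved with the settings: day 4 gave 6 calls without WT1 of day 4, 3 without WT2 of day 4, 53 without the variance trend and 64 with median-of-ratios scaling, and day 8 gave 101 without WT2 of day 8. Over all gene types the order of the first 2 time points turned, with 111 calls at day 0 and 45 at day 4, against 349 at day 8. The median log2 difference at day 0 was 0.0074, and the middle 90% of genes lay between -0.42 and 0.49.

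Libraries of the same genotype differed from each other about as much as libraries of different genotypes. WT1 and WT2 differed at least 2-fold at 442 of 13084 genes (3.38%) and S13 and S23 at 408 (3.12%). The 4 pairs of 1 wild-type and 1 SOX21-/- library differed at least 2-fold at 397 to 508 genes. Across genes, which are not independent replicates, the Pearson correlation of the log2 levels ran from 0.976 to 0.979 over all 6 pairs. The groups did not overlap at 4379 genes (33.5%), 175 genes (1.34%) differed at least 2-fold, and 135 (1.03%) met both conditions, all on the log2(level + 1) scale.

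The intervals show how large a difference the fit allows. The 95% confidence interval of the difference in log2(level + 1) lay within 2-fold either way for 11256 of the tested genes (86%) and within 1.5-fold for 6587 (50.3%). The added 1 shrinks differences of low genes, so for these an interval within 2-fold on that scale does not limit the difference in level to 2-fold. The remaining genes may differ by more without having been detectable with 2 libraries a group.

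**Figure D1:**
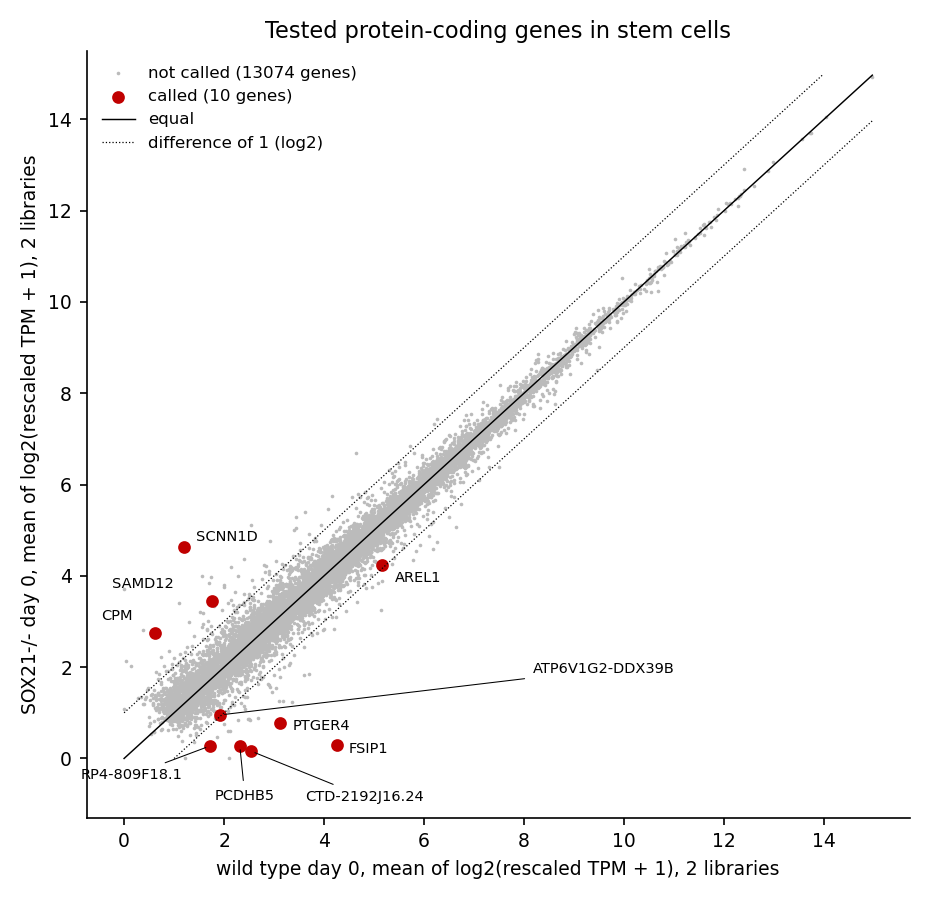
Mean log2(rescaled TPM + 1) of the 2 SOX21-/- libraries against the mean of the 2 wild-type libraries at day 0, 1 point per tested gene. The 10 called genes, in red, have means under 6 on the log2 scale in both groups, while the most abundant genes lie close to the line of equal levels.

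SCNN1D, which encodes the delta subunit of the epithelial sodium channel, was higher in SOX21-/- by the largest margin of the called genes. Its level was 1.39 in WT1 and 1.18 in WT2, against 24.0 in S13 and 23.6 in S23. The log2 difference was 3.44 (SE 0.35, 95% interval 2.67 to 4.21, limma adjusted p = 0.00781). Both SOX21-/- libraries lay far above both wild-type libraries and next to each other. SCNN1D lies on the plus strand of chromosome 1 (GRCh38, 1280436 to 1292029) and overlaps 0 other annotated genes, and it was called in all 23 alternative settings.

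FSIP1, which encodes a protein of the fibrous sheath of the sperm tail, showed the opposite pattern. It stood at 18.1 in WT1 and 17.9 in WT2 and at 0.265 in S13 and 0.189 in S23. The log2 difference was -3.95 (SE 0.49, limma adjusted p = 0.024), and the wild-type libraries agreed closely. FSIP1 runs along the minus strand of chromosome 15 (GRCh38, 39588357 to 39782830) and overlaps THBS1 on the other strand, and the sources used here do not say whether strand was used. The call was lost in 6 of 23 alternative settings. Without a filter the limma adjusted p was 0.0613 and with TPM as deposited 0.0607. The remaining losses came without S13 or S23 at day 0 or either wild-type library of day 8. A fit on the 4 day 0 libraries alone called 2 genes, FSIP1 and SCNN1D.

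PCDHB5 encodes a clustered protocadherin, one of a family of adhesion proteins whose genes stand in a row on chromosome 5 and are switched on in varying combinations in single cells. Its level was 3.20 in WT1, 4.89 in WT2, 0.211 in S13 and 0.217 in S23, a log2 difference of -2.03 (SE 0.24, limma adjusted p = 0.0228). The SOX21-/- values were nearly equal and both far below wild type. The call was lost in 5 of 22 alternative settings. With TPM as deposited the limma adjusted p was 0.0694 and on the day 0 libraries alone 0.407. The remaining losses came without S23 at day 0 or either wild-type library of day 8.

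The sequences upstream of PCDHB5 and FSIP1 are printed because PCDHB5 was the called gene with the same difference at every day and FSIP1 had the largest fall. Each is the 250 bases before the RefSeq start (GRCh38.p14), 5′ to 3′ on the gene's strand, with capitals marking the word CGCT on either strand. CGCT is the core of a conserved element in the promoters of clustered protocadherins.

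PCDHB5, chr5:141134956-141135205, plus strand: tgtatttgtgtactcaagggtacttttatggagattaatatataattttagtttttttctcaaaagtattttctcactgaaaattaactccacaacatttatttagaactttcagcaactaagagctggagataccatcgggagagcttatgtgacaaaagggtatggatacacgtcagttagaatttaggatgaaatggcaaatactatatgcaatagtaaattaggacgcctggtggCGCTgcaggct

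FSIP1, chr15:39782842-39783091, minus strand: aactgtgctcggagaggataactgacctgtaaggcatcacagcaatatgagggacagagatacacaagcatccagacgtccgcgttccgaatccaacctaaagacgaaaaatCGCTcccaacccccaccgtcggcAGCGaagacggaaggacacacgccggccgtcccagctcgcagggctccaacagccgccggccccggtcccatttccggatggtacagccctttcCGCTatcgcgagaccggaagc

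The PCDHB5 window is 35.2% G and C and holds CGCT 1 time, beginning 11 bases before the start. The FSIP1 window is 59.6% G and C and holds it 3 times. So short a word is common: 64.8% of the 35116 RefSeq windows of this length hold it, and 82.8% of the 14941 windows of tested genes. The SOX words ACAATG and ACAAAG, searched on both strands, were in 0 of the windows of the 6 called genes that had one, and in 14.8% of the windows of tested genes. That says only that these letters are not in these 250 bases.

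PTGER4, the EP4 receptor for prostaglandin E2, was lower as well. It read 10.6 in WT1, 5.53 in WT2, 0.623 in S13 and 0.794 in S23 (log2 difference -2.35, SE 0.31, limma adjusted p = 0.0283). The wild-type libraries differed almost 2-fold between themselves, yet the lower of them was several times the higher SOX21-/- value. The call was lost in 13 of 23 alternative settings. With a pseudocount of 0.1 the limma adjusted p was 0.272 and on the day 0 libraries alone 0.424. It was also lost with a filter at 5 and with TPM as deposited. The remaining losses came without WT1, S13 or S23 at day 0, any 1 SOX21-/- library of day 4 or any 1 library of day 8.

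CPM encodes carboxypeptidase M, a membrane enzyme that trims basic residues from the end of peptides. It stood at 0.979 in WT1 and 0.203 in WT2 and at 5.90 in S13 and 5.55 in S23 (log2 difference 2.12, SE 0.29, limma adjusted p = 0.0385). CPM overlaps MDM2 on the opposite strand of chromosome 12. MDM2 itself read 135 and 101 in wild type and 163 and 174 in SOX21-/- (log2 difference 0.52, limma adjusted p = 0.514), and its part in the CPM values was not tested. The CPM call was lost in 12 of 23 alternative settings. With a pseudocount of 0.1 the limma adjusted p was 0.0774 and on the day 0 libraries alone 0.424. It was also lost with a filter at 5, without a filter and with TPM as deposited. The remaining losses came without S13 or S23 at day 0, WT2 of day 4 or any 1 library of day 8.

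SAMD12, which encodes a protein with a sterile alpha motif, was the third gene called higher. It read 2.89 and 1.97 in wild type and 9.60 and 10.3 in SOX21-/- (log2 difference 1.69, SE 0.22, limma adjusted p = 0.0283). The call was lost in 11 of 23 alternative settings. With a pseudocount of 0.1 the limma adjusted p was 0.0657 and on the day 0 libraries alone 0.407. It was also lost with a filter at 5, without a filter and with TPM as deposited. The remaining losses came without S13 or S23 at day 0 or any 1 library of day 8.

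AREL1 was the most abundant of the called genes. It encodes a ubiquitin ligase that targets proteins promoting apoptosis. Its level was 39.6 in WT1, 30.8 in WT2, 17.0 in S13 and 18.5 in S23, a log2 difference of -0.94 (SE 0.14, limma adjusted p = 0.0442). The groups did not overlap, but the call was lost in 17 of 23 alternative settings, among them leaving out WT1 (adjusted p = 0.114), S13 (0.112) or S23 (0.0923) at day 0, or any 1 library of the later days (0.0665 to 0.098).

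The last 3 called entries were low at day 0. ATP6V1G2-DDX39B is a read-through of neighbouring genes that overlaps DDX39B and ATP6V1G2 on the same strand, so the assignment of its reads is uncertain. It read 2.91 and 2.70 in wild type and 1.19 and 0.715 in SOX21-/- (log2 difference -0.97, limma adjusted p = 0.0442), against 92.0 to 183 in the libraries of days 4 and 8, and was called in 8 of 22 alternative settings. CTD-2192J16.24, an entry that overlaps MAN2B1, WDR83 and other genes on chromosome 19, read 5.09 and 4.55 in wild type, 0.251 in S13 and 0 in S23 (log2 difference -2.38, limma adjusted p = 0.00467). RP4-809F18.1, which overlaps 1 annotated gene, read 2.30 and 2.25 against 0.238 and 0.177 (log2 difference -1.44, limma adjusted p = 0.0385). Both CTD-2192J16.24 and RP4-809F18.1 are listed at 0 in all 8 later libraries, which lowers the spread the fit shares over days. Neither was called from the day 0 libraries alone (limma adjusted p = 0.288 and 0.509). Of 22 alternative settings, the call of CTD-2192J16.24 was lost in 2 and that of RP4-809F18.1 in 15.

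**Figure D2:**
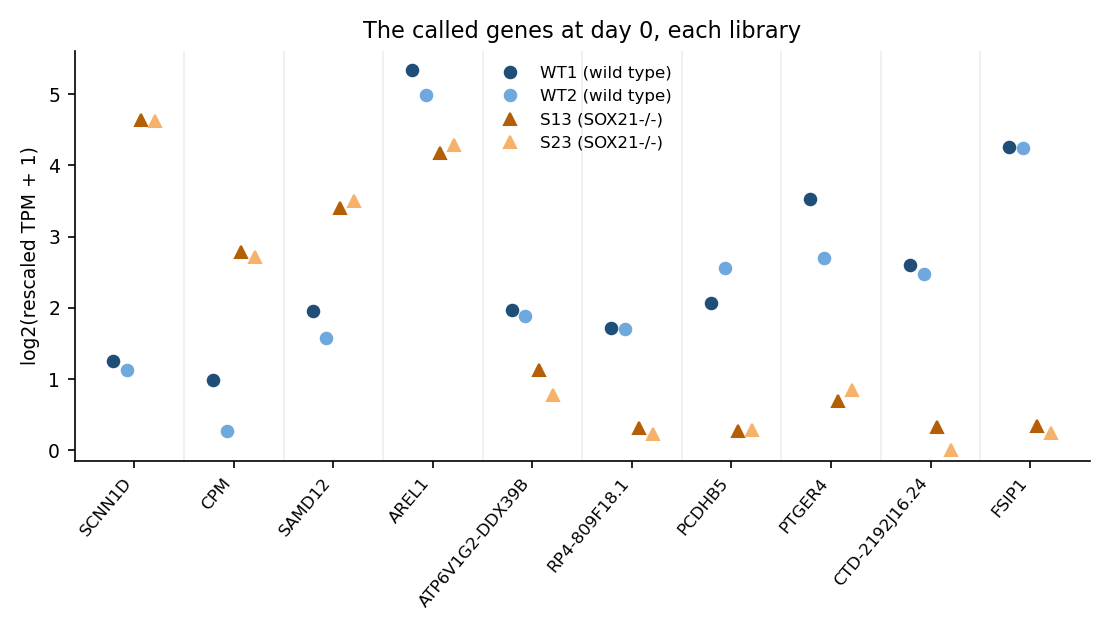
Level of each called gene in each day 0 library, as log2(rescaled TPM + 1), with circles for wild type and triangles for SOX21-/-. SCNN1D, CPM and SAMD12 are higher in both SOX21-/- libraries and the other 7 genes lower, with no overlap between the groups. The genes were chosen on this difference, and the groups did not overlap at 33.5% of all tested genes.

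Some differences as large as these were measured at genes that missed the threshold and whose libraries disagreed within a group. FOS, an immediate early transcription factor, read 9.34 and 2.29 in wild type and 55.4 and 20.1 in SOX21-/- (log2 difference 2.56, 95% interval 0.98 to 4.15, limma adjusted p = 0.309). TENM4, a teneurin of the cell surface, read 2.25 and 1.69 against 45.6 in S13 and 4.43 in S23 (limma adjusted p = 0.353), so that most of its difference came from S13. CTD-2313N18.7 was listed at 0 in both wild-type libraries and read 20.6 and 6.90 in SOX21-/- (limma adjusted p = 0.236). NR5A2, a nuclear receptor that can bind the POU5F1 gene, read 14.8 and 8.21 in wild type, 7.70 in S13 and 0.454 in S23 (limma adjusted p = 0.53), so S13 lay close to WT2. Of 17 tested immediate early genes, FOS among them, none was called, and the median log2 difference was 0.18. At an unadjusted p under 0.05, 1 was higher and 0 lower, beside 4.6% and 3.67% of all genes.

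A further group of genes had adjusted p just over the threshold. RNF123, a ubiquitin ligase subunit, read 114 and 84.3 in wild type and 27.8 and 37.6 in SOX21-/- (log2 difference -1.57, limma adjusted p = 0.0527). COG6, a subunit of a Golgi tethering complex, read 68.4 and 75.6 against 26.5 and 19.8 (log2 difference -1.61, limma adjusted p = 0.0612). PRRT2, a synaptic membrane protein, read 31.3 and 18.2 against 136 and 77.1 (log2 difference 2.06, limma adjusted p = 0.0612), and EID2B, an inhibitor of the EP300 acetyltransferase, 0.399 and 2.28 against 7.09 and 13.04 (log2 difference 2.32, limma adjusted p = 0.0612). All of these were picked from genes whose groups did not overlap, as was so for 33.5% of the tested genes. The wild-type libraries of EID2B lay far apart.

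SOX21 itself was low in stem cells of both genotypes. It read 2.26 in WT1, 2.48 in WT2, 2.87 in S13 and 3.27 in S23 (log2 difference 0.27, 95% interval -0.65 to 1.20, limma adjusted p = 0.942). At day 4 it stood at 180 and 192 in wild type and 186 and 164 in SOX21-/-, and at day 8 at 150 and 120 against 293 and 82.3, so SOX21 was called at no day and its RNA level gives no check of the labels. The 8 tested neighbours of SOX21 on chromosome 13, among them CLDN10, UGGT2 and DZIP1, had a median log2 difference of -0.0054 and intervals within 2-fold, and 0 of them passed even an unadjusted p under 0.05.

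No difference was detected in the paralogs of SOX21. SOX2, the SOXB1 factor of the pluripotency network, read 119 and 120 in wild type and 123 and 129 in SOX21-/- (log2 difference 0.08, 95% interval -0.22 to 0.38). SOX3 read 15.1 and 14.9 against 18.7 and 15.6 (log2 difference 0.18, 95% interval -0.23 to 0.59). Of the 10 tested SOX genes none was called, 0 passed an unadjusted p under 0.05, and 9 had intervals within 2-fold, SOX21 being the exception.

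All stem cell markers were present in all 4 libraries, and most markers of other cell types were low. All 12 embryonic stem cell markers were at or above a level of 1 in every library, with sums of 5730 and 5654 in wild type and 5418 and 5404 in SOX21-/-. Of 6 neural progenitor markers 4 were under 1 in all 4 libraries, and the sums ran from 16.4 to 17.6. The 4 primitive streak markers summed to 0.496 to 0.916 and the 4 endoderm markers to 0.0339 to 0.139, with 2 of the endoderm markers at 0 throughout. Of 6 fibroblast markers 5 were under 1 in every library and 2 were at 0, and the sum ran from 20.8 to 36.1, with WT1 lowest. Of 4 mesoderm markers 3 were under 1 throughout and of 5 trophoblast and amnion markers 4, and the sums ran from 25.1 to 31.1 and from 18.6 to 38.5. Of 4 neural crest markers 3 were under 1 throughout, and the sums ran from 1.51 to 2.27. Neuron markers were not low: of 4 markers 0 were under 1 in all 4 libraries and 2 were at or above 1 in all, with sums of 37.2 in WT1, 39.2 in WT2, 37.8 in S13 and 52.4 in S23. The part of such other cells in the differences below was not tested.

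No gene of the pluripotency network was called, as was so for nearly all tested genes, and most members had intervals within 2-fold, as most tested genes did. Over 33 tested core pluripotency genes the median log2 difference was -0.013 against 0.0074 over all genes. Of these, 28 had intervals within 2-fold, beside 86% of all tested genes. POU5F1, the central factor of the network, read 3116 in WT1, 3118 in WT2, 2675 in S13 and 2979 in S23 (log2 difference -0.14, 95% interval -0.80 to 0.51). LIN28A, an RNA-binding protein that blocks the maturation of let-7 microRNAs, read 301 and 306 against 312 and 262 (95% interval -0.30 to 0.14). TDGF1, the co-receptor for NODAL, read 725 and 642 against 725 and 618 (95% interval -0.45 to 0.39).

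At an unadjusted p under 0.05, 0 of 33 core pluripotency genes were higher and 3 lower, beside 4.6% and 3.67% of all genes. The 3 were ZFP42, LEFTY1 and TRIM71. ZFP42, also called REX1 and often used as a reporter of the undifferentiated state, was the member farthest from 0. It read 62.8 in WT1, 56.6 in WT2, 24.7 in S13 and 24.5 in S23 (log2 difference -1.24, 95% interval -1.73 to -0.75, limma adjusted p = 0.0807). Replicates were close and the groups far apart, but the value did not pass over all genes. NANOG read 44.1 and 40.5 against 42.2 and 31.9 (log2 difference -0.20, 95% interval -0.64 to 0.24). LEFTY1, a NODAL antagonist, read 2.60 and 2.20 against 1.40 and 0.864 (limma adjusted p = 0.534). ZFP42 and NANOG are among the 12 stem cell markers, while LEFTY1, TRIM71 and ZFP42 were chosen for naming after their values were seen.

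**Figure D3:**
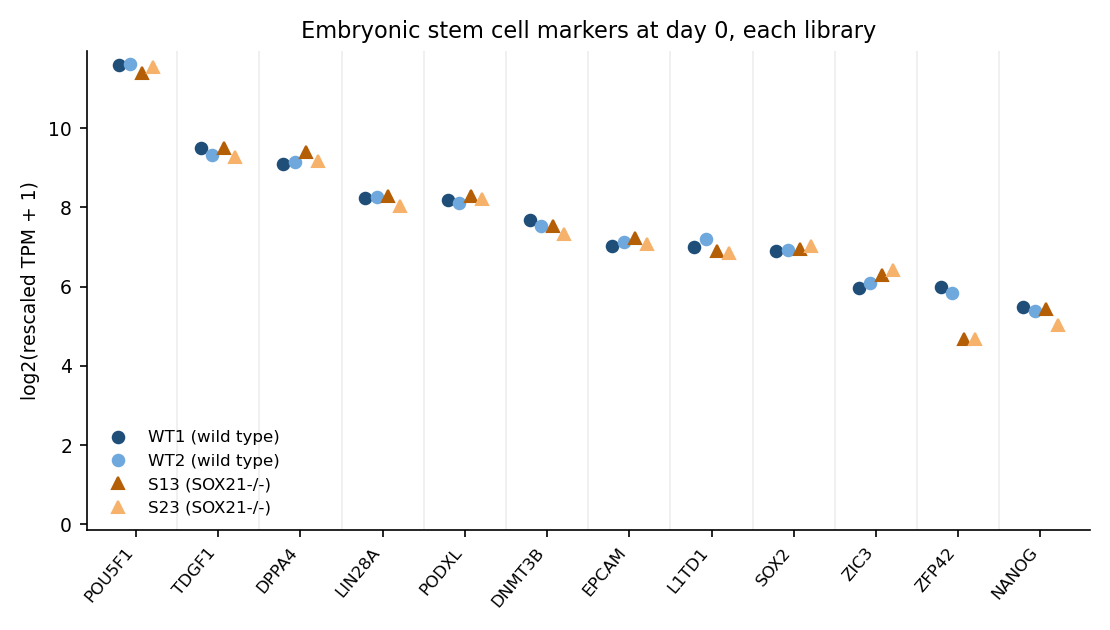
Level of the 12 embryonic stem cell markers in each day 0 library, as log2(rescaled TPM + 1), circles for wild type and triangles for SOX21-/-. The libraries lie within a narrow band at each marker except ZFP42, which is lower in S13 and S23.

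Early neural genes held no call in stem cells. Of 12 tested early neural genes none was called and the median log2 difference was 0.032. FEZF1, a transcription factor of the forebrain, read 25.4 and 27.9 in wild type and 35.1 and 30.9 in SOX21-/- (log2 difference 0.30, 95% interval -0.11 to 0.71). NES, an intermediate filament of neural progenitors, read 27.9 and 28.9 against 23.7 and 21.9 (log2 difference -0.31, limma adjusted p = 0.358). It was the 1 member with an unadjusted p under 0.05, beside 8.27% of all genes. Of 14 synapse and neuron genes none was called and 0 passed an unadjusted p under 0.05.

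WNT8B, the ligand named in the title of the series, was close to 0 in stem cells of both genotypes. It read 0.0868 in WT1, 0.176 in WT2, 0.477 in S13 and 0.172 in S23 and did not enter the test. At day 8 it stood at 1.86 and 0.380 in wild type and at 372 and 357 in SOX21-/-. The machinery around it was present in stem cells of both genotypes. Of 17 tested WNT receptors and secretion genes none was called and 0 passed an unadjusted p under 0.05. The median log2 difference was 0.0056, and 15 had intervals within 2-fold, beside 86% of all tested genes. LRP5, a co-receptor, read 49.7 in WT1, 101 in WT2, 106 in S13 and 77.5 in S23, so the spread within wild type was as wide as that between genotypes. RYK, another WNT receptor, lay between 41.2 and 54.6 in all 4 libraries, both ends of that range in SOX21-/-.

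Other signalling pathways of stem cells held few differences. Of 20 FGF and ERK feedback genes, 20 NODAL and activin genes and 16 BMP genes none was called, with medians of -0.011, -0.075 and 0.029. Within the BMP list BMP7, a ligand, read 5.38 and 16.6 in wild type and 22.6 and 42.7 in SOX21-/- (log2 difference 1.60, limma adjusted p = 0.455), and its receptor gene ACVR1 5.80 and 5.21 against 8.10 and 8.54 (limma adjusted p = 0.456); both were chosen after their values were seen. Of 20 NOTCH pathway genes none was called, and the median was 0.24 against 0.0074 over all genes. That median depended on single libraries: it was 0.25 without WT1, 0.12 without WT2, 0.11 without S13 and 0.21 without S23. At an unadjusted p under 0.05, 2 were higher and 0 lower, beside 4.6% and 3.67% of all genes. The 2 were the ligands JAG1, at 19.2 and 13.3 against 24.4 and 21.8 (limma adjusted p = 0.469), and DLL1, at 0.541 and 0.547 against 1.15 and 2.09 (limma adjusted p = 0.44), both picked with their values in view.

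Eph receptors and their ephrin ligands, which act between neighbouring cells, held no call either. Of 18 tested members 6 were higher at an unadjusted p under 0.05 and 0 lower, beside 4.6% and 3.67% of all genes, and the median log2 difference was 0.17. EPHA4, a receptor, read 9.44 in WT1, 5.53 in WT2, 14.6 in S13 and 16.1 in S23 (log2 difference 0.99, 95% interval 0.56 to 1.41, limma adjusted p = 0.103). The other 5 were ligands: EFNA5 read 11.24 and 8.26 against 17.2 and 12.6 (log2 difference 0.56), and EFNA1, EFNA3, EFNB1 and EFNB2 had log2 differences of 0.59, 0.49, 0.32 and 0.39. The most abundant receptor, EPHA1, read 79.6 and 73.3 against 69.9 and 63.3 (log2 difference -0.20), so the list did not move as 1 block. Without each day 0 library in turn the median of the list ran from 0.18 to 0.23. The ephrins other than EFNA5 were picked for naming with their values in view.

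Proliferation genes showed no difference beyond 2-fold. All 26 cell cycle genes and all 30 DNA replication genes had intervals within 2-fold, none was called, 0 passed an unadjusted p under 0.05, and the medians were -0.023 and -0.0073. All 81 cytosolic ribosomal protein genes and all 24 sterol synthesis genes also had intervals within 2-fold, with none called. Over all tested genes 86% had such intervals.

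The numbered zinc finger genes, most of them presumed DNA-binding repressors, held no call among 426 tested. At an unadjusted p under 0.05, 35 were higher and 11 lower, beside 4.6% and 3.67% of all genes, and the median log2 difference was 0.059 against 0.0074 over all genes. Over all 41 lists examined PCDHB5 was the 1 member called, beside 0.0764% of all tested genes. At that share lists of these sizes would hold few calls or none, so the count says little about the lists.

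Glycolysis and hypoxia genes set WT1 apart from the other 3 libraries. LDHA, which turns pyruvate into lactate, read 3569 in WT1 and 8070, 6991 and 8523 in WT2, S13 and S23. PGK1 read 630 in WT1 against 1559, 1238 and 1767, and BNIP3, a mitophagy gene that responds to hypoxia, 26.7 in WT1 against 99.5, 98.4 and 132. In each of these genes, of which BNIP3 was picked with its values in view, WT2 lay with the SOX21-/- libraries. The 32 tested members summed to 16119 in WT1, 24633 in WT2, 22348 in S13 and 26211 in S23.

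The size of the genotype difference in these genes depended on WT1. The median log2 difference of the list was 0.24 over all 4 libraries, -0.041 without WT1 and 0.45 without WT2, and the median of WT2 minus WT1 was 0.52. None of the 32 was called and 4 were higher at an unadjusted p under 0.05, beside 4.6% of all genes. Leaving out WT2, which left WT1 as the lone wild-type library of day 0, raised the calls over all genes from 10 to 72, 46 of them higher, with BNIP3 among them. Leaving out WT1 gave 27 calls, leaving out S13 25 and leaving out S23 9, and in each case the lone library was assumed to vary like the other groups.

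**Figure D4:**
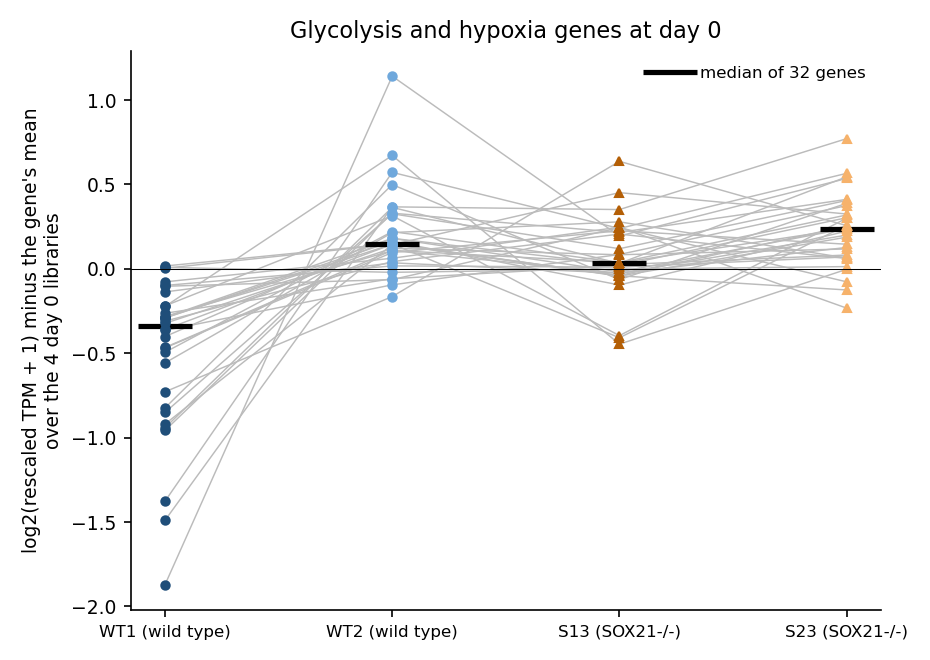
Level of 32 glycolysis and hypoxia genes in each day 0 library, as log2(rescaled TPM + 1) minus the gene's mean over the 4 libraries, with 1 grey line per gene and black bars for the medians. WT1 lies below WT2, S13 and S23, while WT2 lies among the SOX21-/- libraries.

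Clustered protocadherins other than PCDHB5 also varied between libraries of the same genotype. PCDHB2 read 22.1 in WT1, 68.3 in WT2, 28.7 in S13 and 63.1 in S23, and PCDHB3 8.54, 51.0, 15.4 and 50.6 in the same order. In both genes WT1 and S13 were low and WT2 and S23 high. Of 21 tested members 1 was called, PCDHB5, lower, and the median log2 difference was 0.03. At an unadjusted p under 0.05, 3 were higher and 1 lower, beside 4.6% and 3.67% of all genes. PCDHB4, the next member upstream, read 0.842 and 0.449 in wild type and 1.15 and 1.81 in SOX21-/- (log2 difference 0.59, limma adjusted p = 0.572), the opposite direction. PCDHB4 was picked for naming with its values in view. Members of the cluster share similar sequence, so the splitting of reads between them is uncertain.

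The medians of whole chromosomes were small. The median log2 difference of the tested genes of a chromosome ran from -0.011 on chromosome 20 to 0.041 on chromosome 19. Against the wild-type mean, chromosome 19 had medians of 0.077 in S13 and 0.017 in S23, while S23 had a negative median on every other chromosome. Over all tested genes the medians were 0.048 in S13 and -0.031 in S23, so much of this is an offset of the whole library. Chromosome 16 in S13, at 0.073, was close to chromosome 19. The segment 20q11.21, which is often gained in cultured stem cells, had a median of 0.0032 over 17 tested genes, and none of them was called.

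Of the 10 genes called at day 0, PCDHB5 was the 1 that was called in the same direction at day 4 and again at day 8. It read 13.2 and 17.7 in wild type and 1.77 and 1.14 in SOX21-/- at day 4 (log2 difference -2.74, limma adjusted p = 0.00129), and 13.5 and 13.6 against 2.35 and 1.71 at day 8 (log2 difference -2.27, limma adjusted p = 0.00071). The wild-type and SOX21-/- libraries did not overlap at any of the 3 days, and all 4 line labels had higher levels at days 4 and 8 than at day 0. This gene is 10% of the day 0 calls, 0.476% of the day 4 calls and 0.178% of the day 8 calls, and the contrasts of different days share no library but share 1 estimate of spread.

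SCNN1D and FSIP1 did not keep their day 0 difference. SCNN1D at day 8 read 7.15 and 17.7 in wild type and 3.82 and 5.02 in SOX21-/-, a log2 difference of -1.20 (limma adjusted p = 0.0869), opposite in sign to day 0. FSIP1 at day 4 read 1.17 and 0.901 against 1.73 and 1.73, so that wild type, far higher at day 0, lay just below SOX21-/-. For both genes the change in the difference from day 0 to day 8 passed the test of the interaction (limma adjusted p = 0.0013 for SCNN1D and 0.011 for FSIP1). Both were chosen on the day 0 difference, which enters that test. The day 0 libraries also differed from the later ones in the share of protein-coding TPM, whose part in the change was not tested.

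**Figure D5:**
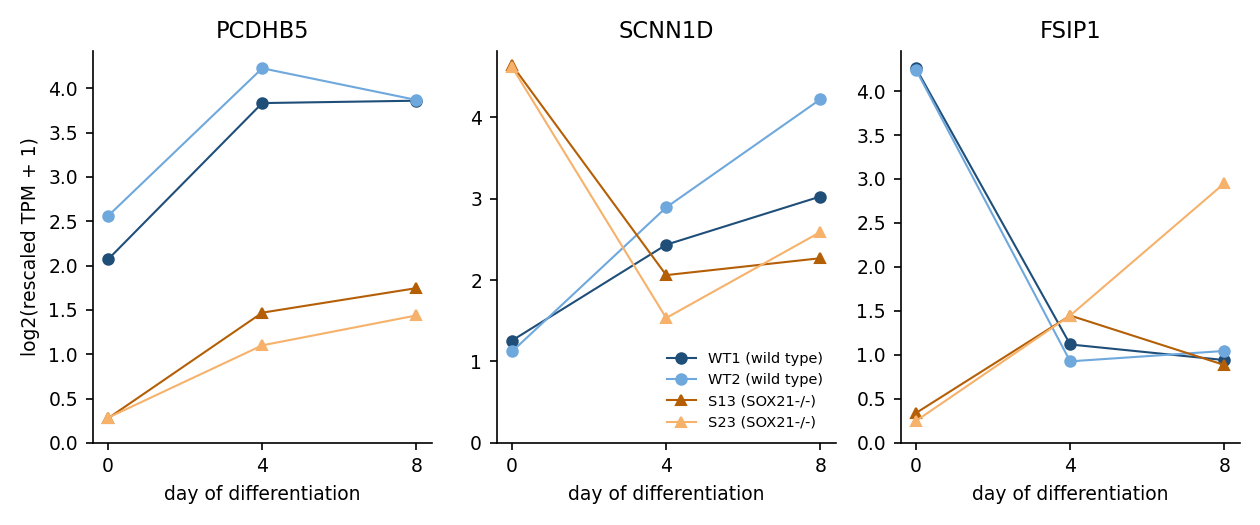
Level of PCDHB5, SCNN1D and FSIP1 in every library at days 0, 4 and 8, as log2(rescaled TPM + 1); lines join libraries with the same line label. PCDHB5 is lower in SOX21-/- at each day, while the day 0 differences of SCNN1D and FSIP1 are not seen at days 4 and 8.

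Genes called at day 8 had a median absolute difference at day 0 close to that of all tested genes. The 562 genes called at day 8 had a median absolute log2 difference of 0.91 at that day and of 0.13 at day 0, where the median over all tested genes was 0.14. A call favours genes with a small spread over all 12 libraries, the day 0 ones included, while the tested genes include more variable ones. Near equality of the medians therefore does not show that the called genes lacked a day 0 difference. Of the 562 genes, 44 had an unadjusted p under 0.05 at day 0 in the same direction as at day 8 and 20 in the other. Over all tested genes the share with such a p at day 0 was 8.27%, both directions together. For the 210 genes called at day 4 the median absolute difference at day 0 was also 0.13, with 10 at an unadjusted p under 0.05 in the same direction and 16 in the other. When genes were admitted by their level at any day, 747 were called at day 8, of which 150 (20.1%) were below the level needed for the day 0 test, as WNT8B was.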

How the data were processed

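The authors deposited TPM per gene; CASAVA 1.7, Salmon 0.8.2 and hg38 are named in the submitters' processing notes. The annotation and the use of strand are not given in the sources used here, nor is which of the 3 sequencers named in the labels' protocols served each library. Depth is therefore unknown. Protein-coding rows outside MT- genes were rescaled to 1000000 and tested as log2(TPM + 1) with limma 3.58.1 in R 4.3.3: 6 group means over 12 libraries, variance trend, 6 residual and 4.56 prior degrees of freedom, two-sided tests, Benjamini-Hochberg adjustment at 0.05. The model was run on simulated data with independent normal noise and, for each gene, the same spread at all days. That setting does not cover a spread or a coding share that differs between days. Members, the 41 gene lists and tests were chosen with earlier results of these data known. SOX21 and WNT8B were always named; otherwise called genes, the 10 largest non-overlapping changes each way with a mean of at least 5, and the 6 most abundant members of each list. Locations came from GENCODE 29 (13076 of 13084 tested genes matched), upstream sequences from RefSeq (GRCh38.p14; 6 of 10 called genes matched). Alternatives changed the pseudocount, filter, scaling, moderation, libraries and block. The line labels were not used to pair samples across days: within a genotype their deviations correlated at -0.0304 to 0.236 between days. Whether WT1 belongs with S13 and WT2 with S23 was not tested. Lists without a sentence of their own had 0 called members, and some results are not reported here.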

Additional observations from a re-analysis of the deposited data

Results flagged for a closer look

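At 8 of the genes called at day 0 the genotype difference changed between days by a test of the interaction in limma. These genes were chosen on the day 0 difference, which enters the interaction, so the tests are not independent of that choice. The share of protein-coding TPM also differed between day 0 and the later days, and its part in these changes was not tested. For SCNN1D the difference moved by -4.31 on the log2 scale from day 0 to day 4 and by -4.64 to day 8. For FSIP1 it moved by 4.38 and 4.88, and for CTD-2192J16.24, listed at 0 in every later library, by 2.38 at both days. ATP6V1G2-DDX39B moved by 1.26 to day 4. To day 8 PTGER4 moved by 2.56, AREL1 by 1.03, SAMD12 by -1.80 and CPM by -2.69. Over all tested genes the interaction was called for 21 genes at day 4 and 101 at day 8, against day 0.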

How the results depend on the processing

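The number of genes called at day 0, 10 as reported, was 4 with a pseudocount of 0.1, 2 with a filter at 5, 6 without a filter, 2 with TPM as deposited over coding genes, 111 over all gene types (47 higher, 64 lower, 9 of the 10 among them), 33 with median-of-ratios scaling (10 higher, 23 lower), 29 with quantile normalization (11 higher, 18 lower), and 2 on the day 0 libraries alone. Without 1 library it ran from 3 to 72. The day 0 calls shared with day 4 numbered 1 as reported, 0 with the filter at 5 and with TPM as deposited, and 0 to 2 without 1 library. Those shared with day 8 numbered 1 as reported, 0 with the same 2 settings, 4 over all gene types, 2 with median-of-ratios scaling, and 0 to 6 without 1 library. The cause of these changes was not tested. With the line label as a random effect (replicate block, correlation -0.00986) 10 genes were called, and the block changed none of the 10 calls. No called gene changed direction under any alternative, but many alternatives could not have changed it. The groups of these genes did not overlap, so leaving out a day 0 library keeps the sign. Changes of moderation, block or later libraries leave the day 0 difference as it was. SOX21 stayed uncalled in all 23, with log2 differences of 0.20 to 0.36. Of 7450 alternative values of 327 uncalled genes followed, 34 were called. List medians without 1 library were added after seeing the data. Depth is unknown, so low genes carry an unknown counting error.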
